A study of Mus musculus with 39 samples.

Results

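The levels of 10 genes of the heat shock response were followed through mouse oocytes, cumulus cells, fertilized embryos and cloned embryos. The genes were *Hspa1a*, *Hspa1b*, *Hspa1l*, *Hspa5*, *Hspa8*, *Hsp90aa1*, *Hsp90ab1*, *Hsph1*, *Hspb1* and *Hsf1*, chosen by symbol, through the RefSeq transcript that the array's annotation gives for each probe. The rule used no measured value, but the genes were chosen with earlier results of these data known. They had 15 probes among the 41174 probes of the array, and all 15 passed the filter on low values. None was saturated on any array. *Hspa1a*, *Hspa1b*, *Hspa8*, *Hsp90ab1* and *Hsf1* had 2 probes each. For each gene the probe with the highest mean level over the 39 arrays, called the lead probe, is described first.

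All animals were (B6xDBA/2)F1 mice, and the females that gave oocytes and donor cells were 8 to 10 weeks old. Each sample had its own array. Its RNA came from a pool of 10 oocytes or embryos, or from 500 cumulus cells, and was amplified in 2 rounds and labelled with Cy3. The groups were unfertilized metaphase II oocytes collected 15 h after hCG (OC, n = 7), 2-cell embryos from in vitro fertilization (IVF, n = 6), the donor cumulus cells (Cumulus, n = 4) and 2-cell embryos cloned from cumulus cells. The cloned embryos were untreated (TSA(-), n = 8), were exposed to 5 nM trichostatin A, an inhibitor of histone deacetylases, for 8 h from activation (TSA(+), n = 6), or were injected at the pronuclear stage with mRNA of the transcription factor Spi-C at 1.0 mg/ml (n = 4) or 0.1 mg/ml (n = 4). The last were not exposed to trichostatin A and are called Spi-C NT together. All embryos were cultured for 24 h. Each level below is a log2 intensity relative to the 75th percentile of its array, so 0 is the level of a bright probe and higher values are brighter. Separate cultures or animals are not stated for the arrays of a group, so p-values measure the spread between these arrays, which may be technical in part.

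Heat shock proteins are chaperones that bind unfolded chains and help them fold. HSP70 proteins work with HSP40 co-chaperones and nucleotide exchange factors, HSP90 proteins hold client proteins such as kinases and receptors near their active shape, and small heat shock proteins keep unfolded chains from clumping. HSF1 is the factor that binds heat shock elements in the promoters of these genes when cells are stressed. In the mouse, an inducible HSP70 gene is among the first to be transcribed from the new embryonic genome, without any heat shock, and HSF1 is supplied by the oocyte.

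The OC, IVF, TSA(-) and TSA(+) arrays were on 9 slides scanned on 5 days with 1 scanner model. The 12 Cumulus and Spi-C arrays were on 3 other slides, scanned on 2 other days with another scanner model and a later version of the image software, so that for comparisons of these groups with the others the group and the scan cannot be told apart. Between 48.6 and 59.9% of probes were well above background in OC, 58.2 to 65.7% in Cumulus and 66.8 to 77.5% in the embryo groups. Levels are relative, and the median log2 difference of all tested probes was -0.87 for IVF minus OC and -0.99 for TSA(-) minus OC. With arrays centred on their medians these shifts were -1.55 and -1.66, and with quantile normalization -0.29 and -0.31. The summed level of 9 oocyte markers was 2770 to 4680 times the 75th percentile in OC and 2.39 to 4.46 times in Cumulus, and that of 10 cumulus and granulosa cell markers was 232 to 251 times in Cumulus and at most 11.4 times in any other group. Cumulus also had the highest sum of 5 leukocyte markers, at 23.9 to 107 times, against at most 2.9 times in any other group. The part of such cells in the Cumulus levels was not tested. The lead probe of *Spic*, the gene of Spi-C, had a mean level of 1.49 at 1.0 mg/ml and 1.58 at 0.1 mg/ml. Its mean was 2.04 in TSA(-) and 3.94 in IVF. The arrays thus do not show the injected mRNA or a difference in its dose, and the reason was not tested.

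*Hspa1a*, *Hspa1b* and *Hspa1l* lie together on chromosome 17. *Hspa1a* and *Hspa1b* encode the inducible cytosolic HSP70 as near-identical copies, so that their probes may read both transcripts, and *Hspa1l* encodes a related HSP70 known mainly from testis. In RefSeq annotation of GRCm38.p6, 10120 bases separate *Hspa1b* (17:34956429-34959238) from *Hspa1a* (17:34969359-34972156), and 546 bases separate *Hspa1a* from *Hspa1l* (17:34972703-34979228), which is read from the opposite strand. The promoter windows, from 250 bases before to 50 bases after the start site, differ at only 4 of 300 positions between *Hspa1a* and *Hspa1b*. The last 150 bases before the start site are shown for the 3 genes because their levels moved in part together. They are written 5′ to 3′ on the strand of the gene, with capitals for the heat shock element unit GAANNTTC or TTCNNGAA.
Hspa1a, chr17:34972157-34972306, minus strand: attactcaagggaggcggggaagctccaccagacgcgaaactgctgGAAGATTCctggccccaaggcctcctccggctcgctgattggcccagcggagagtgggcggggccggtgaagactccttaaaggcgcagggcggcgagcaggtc
Hspa1b, chr17:34959239-34959388, minus strand: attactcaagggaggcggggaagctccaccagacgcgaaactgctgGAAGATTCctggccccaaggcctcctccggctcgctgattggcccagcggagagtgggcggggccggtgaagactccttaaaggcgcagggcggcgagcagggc
Hspa1l, chr17:34972553-34972702, plus strand: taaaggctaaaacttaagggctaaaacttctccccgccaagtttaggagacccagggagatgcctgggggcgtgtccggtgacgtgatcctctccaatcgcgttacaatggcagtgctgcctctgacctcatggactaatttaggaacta
Both units are their own reverse complement, so 1 strand was read. *Hspa1a* and *Hspa1b* each had GAANNTTC once, beginning 104 bases before the start site, and *Hspa1l* had neither unit in its window. Of 32851 mouse promoter windows of this length, 7.86% held GAANNTTC, 8.52% held TTCNNGAA and 15.1% held at least 1 of them. *Hspa1a* and *Hspa1b* also each had CCAAT once (37.4% of windows) and GGGCGG 3 times (35.7% of windows held it at least once), counted on both strands. *Hspa1l* had each of these once, and none of the 3 windows had TATAAA (13.6% of windows). A match is a description of the letters and not a bound site.

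Both inducible genes were at their lowest in OC and at their highest in IVF, and the cloned embryos lay between. *Hspa1a* in OC was between -2.24 and 0.56, with a median of -1.15, and in IVF it was between 3.29 and 3.95, with a median of 3.71. In TSA(-) it was 1.17 at the lowest, 2.03 at the median and 3.21 at the highest, and in TSA(+) it was 2.34, 2.58 and 2.93. The OC and IVF arrays were far apart, and every TSA(-) and TSA(+) array was below every IVF array, by the narrowest margin for TSA(-) replicate 8 at 3.21. The Spi-C arrays were at 1.60, 1.83, 2.04 and 2.06 for 1.0 mg/ml and at 2.29, 2.34, 2.53 and 2.64 for 0.1 mg/ml. Cumulus arrays were at 0.90, 1.05, 1.23 and 1.75. All of these were below IVF and above OC. The other *Hspa1a* probe gave group means within 0.21 of the lead probe, had the same sign in 10 of 10 comparisons and was called in the same 5.

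*Hspa1b* had the same groups at both ends. Its level in OC was between -6.47 and -3.88, with a median of -5.21, and only 4 of the 7 OC arrays were well above background. In IVF it was between -0.83 and 0.25, with a median of -0.15. In TSA(-) it was -2.76 at the lowest, -1.81 at the median and -0.73 at the highest, and in TSA(+) it was -2.04, -1.43 and -1.03. The IVF arrays overlapped with TSA(-) through replicate 8 of TSA(-) alone and did not overlap with TSA(+). The Spi-C arrays were at -2.79, -2.77, -2.55 and -2.09 for 1.0 mg/ml and at -2.42, -2.27, -2.18 and -2.11 for 0.1 mg/ml. Cumulus arrays were at -3.36, -3.30, -3.11 and -3.08, between OC and the embryos. The other *Hspa1b* probe was well above background on only 3 arrays, all TSA(-), and was called in no comparison, so the results for this gene rest on 1 probe.

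*Hspa1l* had a smaller gap between OC and IVF. It was between -4.69 and -3.59 in OC, with a median of -4.31, and between -2.20 and -1.47 in IVF, with a median of -1.68. In TSA(-) it was -3.89 at the lowest, -2.27 at the median and -1.74 at the highest, so that the untreated clones spanned the range from OC to IVF. TSA(+) arrays lay between -2.88 and -1.76, Spi-C arrays between -2.37 and -1.73, and Cumulus arrays between -5.25 and -3.75. Its level in Cumulus overlapped with that in OC, unlike those of *Hspa1a* and *Hspa1b*.

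**Figure D1:**
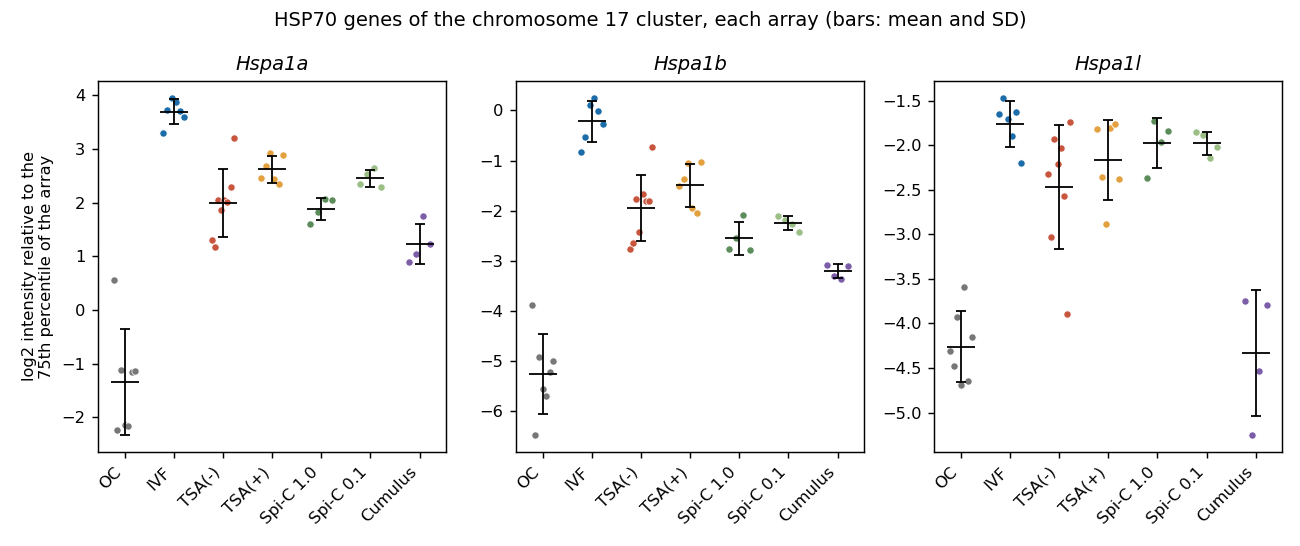
Levels of the lead probes of Hspa1a, Hspa1b and Hspa1l on each array (y axis: log2 intensity relative to the 75th percentile of the array; x axis: the 7 groups). Points are arrays and bars are the mean and SD of a group. For Hspa1a and Hspa1b the IVF arrays are the highest group, OC the lowest, and the cloned embryos lie between, with TSA(-) replicate 8 as their highest array.

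The comparison of IVF with OC asks what fertilization and the first cleavage change. The levels were tested with limma over 39517 probes, and a probe was called at a Benjamini-Hochberg adjusted p under 0.01. Of the 15 probes 12 were called, 7 higher and 5 lower in IVF, beside 66% of all probes (23.4% higher and 42.6% lower). *Hspa1a* rose by 5.03 on the log2 scale (SE 0.334, 32.7-fold, limma adjusted p = 4.55e-14) and *Hspa1b* by 5.03 (SE 0.319, adjusted p = 1.55e-14). *Hspa1l* rose by 2.50 (SE 0.293, adjusted p = 1.01e-08). Within the 4 scan days that had both groups, the gains were 4.44 to 5.96 for *Hspa1a* and 4.92 to 5.64 for *Hspa1b*. For *Hspa1l* they were 1.99 to 2.83. Each of these days had 1 to 3 arrays of a group. As OC and IVF did not overlap for these genes, the sign within a day was fixed and adds no support. The size of the gain of the dimmer probes depended on the background correction: with normexp and an offset of 50 it was 4.63 for *Hspa1a*, 2.29 for *Hspa1b* and 0.81 for *Hspa1l*.

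In the untreated clones the inducible pair was above its level in OC and below its level in IVF. In TSA(-) against OC, 12 of the 15 probes were called, 7 higher and 5 lower, beside 70.1% of all probes (23.5% higher and 46.6% lower), and *Hspa1a* was higher by 3.34 (SE 0.311) and *Hspa1b* by 3.30 (SE 0.296). *Hspa1l* was higher by 1.79 (SE 0.273), a call that was lost with normexp (0.24, adjusted p = 0.234). Against IVF, 4 of the 15 probes were called, 1 higher and 3 lower, beside 18.7% of all probes (8.58% higher and 10.2% lower). *Hspa1a* was lower than in IVF by a log2 difference of -1.70 (SE 0.324, 3.24-fold, limma adjusted p = 0.000179) and *Hspa1b* by -1.73 (SE 0.309, 3.32-fold, adjusted p = 7.71e-05). Within the 4 scan days the differences were -2.15 to -1.16 for *Hspa1a* and -2.59 to -1.04 for *Hspa1b*. For *Hspa1a* the sign was fixed, as no TSA(-) array reached IVF, and for *Hspa1b* nearly so. *Hspa1l* did not pass the threshold (-0.71, SE 0.285, adjusted p = 0.0648). As the samples were pools of 10 embryos, fewer embryos expressing a gene and less RNA in each cannot be told apart. The summed level of 8 markers of the 2-cell embryo was also lower in the clones, at 73.2 to 213 times the 75th percentile in TSA(-), 101 to 191 in TSA(+) and 55.0 to 101 in Spi-C NT, against 268 to 371 in IVF. Its part in the result was not tested.

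With trichostatin A both genes stayed below IVF in level on every array, but the test was less clear. *Hspa1b* was lower by -1.27 (SE 0.331, limma adjusted p = 0.00416), and *Hspa1a* had a difference of -1.07 (SE 0.347, adjusted p = 0.0203), which did not pass but was called with quantile normalization, normexp, only the 2 groups in the fit or all 7 groups in 1 fit (-1.07 to -1.05, adjusted p 0.000256 to 0.00929). Over the set, 2 of the 15 probes were called in TSA(+) against IVF, 1 higher and 1 lower, beside 18.8% of all probes (8.02% higher and 10.8% lower). The *Hspa1b* call was lost with slide as a block (-1.05, adjusted p = 0.0496), with scan day as a block (-1.14, adjusted p = 0.0141), with arrays centred on their medians (-1.07, adjusted p = 0.0174), or without any 1 of IVF replicates 3, 4 and 5 and TSA(+) replicates 4 and 5 (-1.23 to -1.16, adjusted p 0.0101 to 0.0135). Within the 3 scan days that had both groups the *Hspa1b* difference was -1.55 to -0.76, with a sign fixed by the lack of overlap. Between TSA(+) and TSA(-) directly, neither gene was called. *Hspa1a* differed by 0.63 (95% interval -0.03 to 1.29) and *Hspa1b* by 0.46 (-0.17 to 1.10), and within scan days both were higher in 2 of 3 days only.

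Neither gene was called between Spi-C NT and the untreated clones. Spi-C NT minus TSA(-) was 0.17 (SE 0.196, limma adjusted p = 0.55) for *Hspa1a* and -0.45 (SE 0.235, adjusted p = 0.154) for *Hspa1b*. Against IVF, *Hspa1a* was lower by -1.53 (SE 0.212, adjusted p = 1.62e-06) and *Hspa1b* by -2.18 (SE 0.254, 4.53-fold, adjusted p = 1.02e-07). In the 2 concentrations *Hspa1a* did not overlap, with all 4 arrays at 1.0 mg/ml below all 4 at 0.1 mg/ml. The difference of -0.57 (95% interval -1.14 to 0) was not called (adjusted p = 0.999, unadjusted p = 0.0514), and within the 2 slides that held both concentrations it was -0.72 and -0.42. For *Hspa1b* the difference was -0.30 (-0.99 to 0.38).

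The donor cells also had more of the pair than oocytes. Cumulus was higher than OC by 2.58 for *Hspa1a* (SE 0.376, limma adjusted p = 4.7e-07) and by 2.03 for *Hspa1b* (SE 0.359, adjusted p = 9.69e-06), although with normexp the second was -0.05. TSA(-) minus Cumulus was 0.76 for *Hspa1a* (SE 0.368, adjusted p = 0.0742) and 1.26 for *Hspa1b* (SE 0.351, adjusted p = 0.0024). The first was called with quantile normalization (1.02, adjusted p = 0.00688) and turned to -0.11 with median centring. The second was not called with quantile normalization (0.62), median centring (0.40) or the replicate number as a block (1.00). *Hspa1l* was higher in TSA(-) than in Cumulus by 1.87 (SE 0.323, adjusted p = 8.65e-06).

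*Hspa5* encodes BiP, the HSP70 of the endoplasmic reticulum and a common readout of the unfolded protein response. It is at 2:34772090-34776529 on the plus strand of GRCm38.p6. The 150 bases before its start site are shown since this gene moved against the cytosolic pair in clones, and capitals mark the endoplasmic reticulum stress element, which is CCAAT and CCACG with 9 bases between them, a motif added to the search after the levels were known.
Hspa5, chr2:34771940-34772089, plus strand: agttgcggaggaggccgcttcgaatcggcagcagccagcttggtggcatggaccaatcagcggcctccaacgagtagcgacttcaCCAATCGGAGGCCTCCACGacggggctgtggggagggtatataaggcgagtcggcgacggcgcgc
The element began 65 bases before the start site, and 0.119% of the 32851 windows held it on either strand. Neither heat shock element unit was in this window.

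The level of *Hspa5* separated most groups. It was between 3.10 and 3.65 in OC, with a median of 3.61, and between 5.25 and 5.59 in IVF, with a median of 5.53. In TSA(-) it was 5.92 at the lowest, 6.13 at the median and 6.25 at the highest, and in TSA(+) it was 6.05, 6.22 and 6.34. Every cloned embryo array of these groups was above every IVF array. The Spi-C arrays were at 5.58, 5.62, 5.71 and 5.95 for 1.0 mg/ml and at 5.66, 5.78, 5.81 and 5.97 for 0.1 mg/ml, and Cumulus arrays were the highest at 6.64, 6.67, 6.76 and 6.87. The Spi-C arrays overlapped with the IVF arrays at their low end and with TSA(-) at their high end.

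*Hspa5* rose from OC to IVF by 1.95 (SE 0.111, limma adjusted p = 1.23e-15). It was higher than in IVF by 0.63 in TSA(-) (SE 0.108, 1.55-fold, adjusted p = 4.01e-05) and by 0.73 in TSA(+) (SE 0.115, adjusted p = 1.63e-05). The excess in TSA(-) was 0.55 to 0.82 within 4 scan days and that in TSA(+) 0.65 to 1.02 within 3. The signs were fixed, as these arrays did not overlap with IVF. TSA(+) minus TSA(-) was 0.09 (95% interval -0.13 to 0.31). Spi-C NT was lower than TSA(-) by -0.35 (SE 0.081, adjusted p = 0.0015), which was not called with quantile normalization (-0.13, adjusted p = 0.279), normexp (-0.25, adjusted p = 0.0282) or the replicate number as a block (-0.33, adjusted p = 0.0236). Spi-C NT minus IVF was 0.28 (SE 0.088, adjusted p = 0.0102). That value missed the threshold narrowly. It passed with quantile normalization (0.66, adjusted p = 1.79e-06), normexp (0.44), only probes well above background on every array of a group, the 8 Spi-C arrays as 1 group, a prior variance following the mean level, Tukey's test, or without Spi-C 0.1 replicate 3 (0.31, adjusted p = 0.008) or Spi-C 1.0 replicate 3 (0.30, adjusted p = 0.0084), whereas median centring gave 0.10 (adjusted p = 0.475). Cumulus, the donor cell, was higher than OC by 3.21 (SE 0.125), and TSA(-) was lower than Cumulus by -0.62 (SE 0.122, adjusted p = 5.03e-05). With quantile normalization the last was not called (-0.23, adjusted p = 0.098).

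*Hspa8* encodes HSC70, the constitutive cytosolic HSP70 (9:40801276-40805202). Donor cells had the highest level, with Cumulus arrays at 7.17, 7.24, 7.44 and 7.50. In OC it was between 4.76 and 5.91, with a median of 5.47, in IVF between 4.58 and 4.89, with a median of 4.70, and in TSA(-) between 4.91 and 5.27, with a median of 5.09. TSA(+) arrays lay between 4.84 and 5.34. Every TSA(-) array was above every IVF array. The Spi-C arrays were the lowest, at 4.31, 4.39, 4.40 and 4.41 for 1.0 mg/ml and 4.37, 4.41, 4.43 and 4.50 for 0.1 mg/ml, and they overlapped with no other group.

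The direction of *Hspa8* against OC depended on the scaling. IVF minus OC was -0.64 (SE 0.149, limma adjusted p = 0.00038) and TSA(-) minus OC -0.29 (SE 0.138, adjusted p = 0.0558), whereas with quantile normalization they were 1.11 and 1.62. TSA(-) minus IVF was 0.34 (SE 0.144, adjusted p = 0.0776), and it was called only with quantile normalization among the alternatives run (0.52, adjusted p = 0.00696). Spi-C NT was lower than TSA(-) by -0.67 (SE 0.082, 1.59-fold, adjusted p = 6.23e-07) and lower than IVF by -0.32 (SE 0.089, adjusted p = 0.00382). The second was lost with quantile normalization (-0.03, adjusted p = 0.851) and without IVF replicate 1 or 6 (adjusted p 0.0114 and 0.0135). Cumulus was higher than OC by 1.97 (SE 0.168, adjusted p = 8.42e-12), and TSA(-) was below Cumulus by -2.27 (SE 0.164, 4.81-fold, adjusted p = 3.54e-13). The other *Hspa8* probe had the same sign in 9 of 10 comparisons and was called in 2 of them, both with Cumulus.

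The pair of cytosolic HSP90 genes parted between oocyte and embryo. *Hsp90aa1* encodes the inducible form (12:110691036-110696395) and *Hsp90ab1* the constitutive form (17:45567778-45573261). *Hsp90aa1* was between 4.15 and 5.13 in OC, with a median of 4.49, and between 5.97 and 6.40 in IVF, with a median of 6.32. *Hsp90ab1* was between 6.85 and 7.38 in OC, with a median of 7.04, and between 3.46 and 4.08 in IVF, with a median of 3.69. For both genes OC and IVF did not overlap, in opposite directions. IVF minus OC was 1.70 for *Hsp90aa1* (SE 0.165, limma adjusted p = 2.08e-10) and -3.34 for *Hsp90ab1* (SE 0.166, 10.1-fold, adjusted p = 5.61e-17). Both kept their sign with each scaling, at 1.02 to 3.25 and -4.02 to -1.21. Within scan days the sign was fixed, as OC and IVF did not overlap. The other *Hsp90ab1* probe gave -3.95 (SE 0.342).

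Among the embryos the HSP90 pair differed little. *Hsp90aa1* was between 5.52 and 6.50 in TSA(-), with a median of 5.97, between 6.10 and 6.52 in TSA(+), with a median of 6.31, and between 5.78 and 6.06 in the Spi-C arrays. All of these ranges overlapped with IVF. *Hsp90ab1* was between 3.02 and 4.23 in TSA(-), between 3.75 and 4.04 in TSA(+) and between 3.30 and 3.97 in the Spi-C arrays. For TSA(-) minus IVF the values were -0.32 (SE 0.16, limma adjusted p = 0.147) and -0.05 (SE 0.161, adjusted p = 0.863). TSA(+) minus TSA(-) was 0.34 for *Hsp90aa1* (95% interval 0.01 to 0.67, adjusted p = 0.285). In Spi-C NT against IVF, 7 of the 15 probes were called, 1 higher and 6 lower, beside 36.1% of all probes (19.4% higher and 16.7% lower). *Hsp90aa1* was one of these, at -0.40 (SE 0.12, adjusted p = 0.00777), but the call was lost when any of 11 of the 14 arrays was left out (adjusted p 0.0107 to 0.0194), and with quantile normalization the value was 0.01. The only higher probe was the other *Hsp90ab1* probe, at 0.94 (SE 0.224, adjusted p = 0.00114), while its lead probe had -0.19 (SE 0.147, adjusted p = 0.291).

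In the donor cells both genes were high. Cumulus arrays were at 6.50, 6.77, 6.82 and 7.36 for *Hsp90aa1* and between 5.62 and 6.34 for *Hsp90ab1*. Relative to OC, 12 of the 15 probes were called in Cumulus, 8 higher and 4 lower, beside 67.6% of all probes (23.5% higher and 44.1% lower). *Hsp90aa1* was higher by 2.28 (SE 0.186, limma adjusted p = 3.53e-12). *Hsp90ab1* was lower by -1.11 (SE 0.187, adjusted p = 5.04e-06), but its direction turned to 0.92 with quantile normalization. TSA(-) embryos were lower than their donor cells by -0.89 for *Hsp90aa1* (SE 0.182, adjusted p = 8.17e-05) and by -2.28 for *Hsp90ab1* (SE 0.183, 4.87-fold, adjusted p = 3.5e-12). In this comparison 10 of the 15 probes were called, 4 higher and 6 lower, beside 54.9% of all probes (30.4% higher and 24.5% lower).

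*Hsph1* encodes HSP110, a large relative of HSP70 that works as its nucleotide exchange factor (5:149616843-149636498). It rose from OC to IVF and then held a narrow range. Its level was between 4.21 and 4.89 in OC, with a median of 4.66, and between 6.08 and 6.61 in IVF, with a median of 6.36. The TSA(-), TSA(+), Spi-C and Cumulus arrays all lay between 5.78 and 6.61. IVF minus OC was 1.76 (SE 0.158, limma adjusted p = 4.43e-11) and Cumulus minus OC 1.57 (SE 0.178, adjusted p = 4.09e-09). TSA(-) minus Cumulus was -0.01 (SE 0.174), although with arrays centred on their medians it was -0.87 (adjusted p = 0.000452). No comparison among the embryo groups was called for this gene.

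*Hspb1* encodes HSP27, a small heat shock protein that also acts on actin filaments (5:135887919-135889563). Its lead probe is its only one, and the spot of TSA(-) replicate 7 was marked as an outlier and left out. The promoters of *Hspb1* and *Hsph1* are shown because, with those of *Hspa1a* and *Hspa1b*, they were the windows of the set with a heat shock element unit, marked in capitals.
Hspb1, chr5:135887769-135887918, plus strand: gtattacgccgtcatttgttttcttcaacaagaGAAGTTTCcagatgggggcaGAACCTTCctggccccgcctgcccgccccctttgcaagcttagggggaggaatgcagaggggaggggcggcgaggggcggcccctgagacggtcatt
Hsph1, chr5:149636337-149636486, minus strand: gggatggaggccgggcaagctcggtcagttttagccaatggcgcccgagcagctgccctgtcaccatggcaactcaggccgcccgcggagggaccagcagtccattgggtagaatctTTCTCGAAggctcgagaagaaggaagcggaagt
*Hspb1* had GAANNTTC at 2 places, beginning 117 and 97 bases before the start site. *Hsph1* had TTCNNGAA beginning 33 bases before the start site of the transcript shown and the longer element of GAA, TTC and GAA with 2 bases between each, read on the opposite strand, beginning 36 bases after it, a form that 0.603% of windows held on either strand. RefSeq windows were used for 6 of the 10 genes, and those of *Hspa8*, *Hsp90aa1*, *Hsp90ab1* and *Hsf1* were not analysed here.

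The level of *Hspb1* was similar in oocytes and fertilized embryos and lowest in the donor cells. In OC it was between 0.41 and 1.52, with a median of 1.06, and in IVF between 0.78 and 1.39, with a median of 1.14. In TSA(-) it was -0.09 at the lowest, 0.34 at the median and 1.05 at the highest, and in TSA(+) it was 0.98, 1.40 and 1.74. The TSA(-) and TSA(+) arrays overlapped only through TSA(-) replicate 2 at 1.05. The Spi-C arrays were at 0.42, 0.46, 0.72 and 0.91 for 1.0 mg/ml and between 0.41 and 0.62 for 0.1 mg/ml, with all but 1 below every IVF array, and Cumulus arrays lay between -0.64 and 0.47.

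In TSA(+) against TSA(-), none of the 15 probes was called (0.144% of all probes). By unadjusted limma p under 0.05 there were 2, and by Tukey's test, which the study's methods name, 1. The shares of all probes by these measures were not counted. The probe called by Tukey's test was that of *Hspb1*, with 0.99 (SE 0.216, 1.99-fold, 95% interval 0.55 to 1.44, limma adjusted p = 0.0232). It passed the threshold with quantile normalization (1.07, adjusted p = 0.00955), median centring (1.20, adjusted p = 0.00914), normexp (0.97, adjusted p = 0.0043) and a fit of all 7 groups (0.99, adjusted p = 0.00755), and did not with slide as a block (1.14, adjusted p = 0.238) or scan day as a block (1.02, adjusted p = 0.0375). On the 2 scan days that had both groups and a value, it was 0.44 and 0.62. The summed level of the 10 cumulus and granulosa cell markers was 8.39 to 11.4 times the 75th percentile in TSA(+) and 4.57 to 8.55 times in TSA(-). The brightest of them in these embryos was *Amhr2*, at a mean level of 3.15 in TSA(+), 2.55 in TSA(-) and 2.21 in Cumulus. Over the 10 markers the median log2 difference of TSA(+) minus TSA(-) was -0.19, and none was called. *Hspb1* was lowest in Cumulus, and the part of donor cell RNA in its TSA(+) minus TSA(-) difference was not tested.

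*Hspb1* was lower in Cumulus than in OC by -1.17 (SE 0.243, limma adjusted p = 9.84e-05). TSA(-) minus OC was -0.65 (SE 0.208, adjusted p = 0.00619), a call that was lost with quantile normalization (-0.33, adjusted p = 0.144), with slide as a block (-0.68, adjusted p = 0.0138), or without any 1 of OC replicates 1, 3 and 6 and TSA(-) replicates 1, 3, 4 and 6 (-0.64 to -0.56, adjusted p 0.0109 to 0.0183). TSA(-) minus IVF was -0.71 (SE 0.216, limma adjusted p = 0.0133), which missed the threshold and passed it without TSA(-) replicate 2 (-0.82, adjusted p = 0.00485) and under 7 other settings. It was negative on only 2 of the 3 scan days with a value, from -1.24 to 0.11. TSA(+) minus IVF was 0.28 (SE 0.224, adjusted p = 0.381). Spi-C NT was lower than IVF by -0.55 (SE 0.153, adjusted p = 0.00455), a call that was lost without any 1 of IVF replicates 2, 3 and 4 or Spi-C 1.0 replicate 4 (-0.54 to -0.50, adjusted p 0.0103 to 0.0144) and in a fit of all 7 groups (adjusted p = 0.0202).

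*Hsf1*, the heat shock transcription factor (15:76477362-76501155), was highest in oocytes. The spot of TSA(-) replicate 7 was marked as an outlier on its lead probe and left out. Its level was between 2.70 and 3.64 in OC, with a median of 3.18, and between 1.69 and 2.48 in IVF, with a median of 1.94. In TSA(-) it was between 1.30 and 2.49, with a median of 1.58 and replicate 2 as the highest, in TSA(+) between 1.60 and 2.19, with a median of 2.01, and in the Spi-C arrays between 1.45 and 1.89. The embryo groups overlapped with each other and lay below OC. Cumulus arrays were the lowest, between -1.63 and 0.22.

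*Hsf1* fell from OC to IVF by 1.11 on the log2 scale (SE 0.245, limma adjusted p = 0.000219), a call that was lost with quantile normalization (-0.12, adjusted p = 0.677). The other probe fell by 1.06 (SE 0.226). Cumulus was lower than OC by -3.81 (SE 0.276, 14.0-fold, adjusted p = 3.89e-13), and TSA(-) was higher than Cumulus by 2.36 (SE 0.276, adjusted p = 1.34e-08). TSA(-) minus IVF was -0.34 (SE 0.245, adjusted p = 0.336), and TSA(+) minus IVF -0.06 (SE 0.254, adjusted p = 0.885). In Spi-C NT against TSA(-), 3 of the 15 probes were called, 1 higher and 2 lower, beside 20.9% of all probes (12.1% higher and 8.8% lower). The lower ones were *Hspa8* and *Hspa5*, and the higher one was the other *Hsf1* probe, at 0.53 (SE 0.144, adjusted p = 0.00656), while its lead probe was at -0.02 (SE 0.152, adjusted p = 0.934). That call of the other probe was lost when any of 11 of the 16 arrays was left out (0.48 to 0.53, adjusted p 0.0105 to 0.0172).

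Between Spi-C mRNA at 1.0 and 0.1 mg/ml none of the 15 probes was called (0.00506% of all probes). None had an unadjusted limma p under 0.05, a level at which the share of all probes was not counted. Differences of the lead probes ranged from -0.57 for *Hspa1a* to 0.11 for *Hspb1*.

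**Figure D2:**
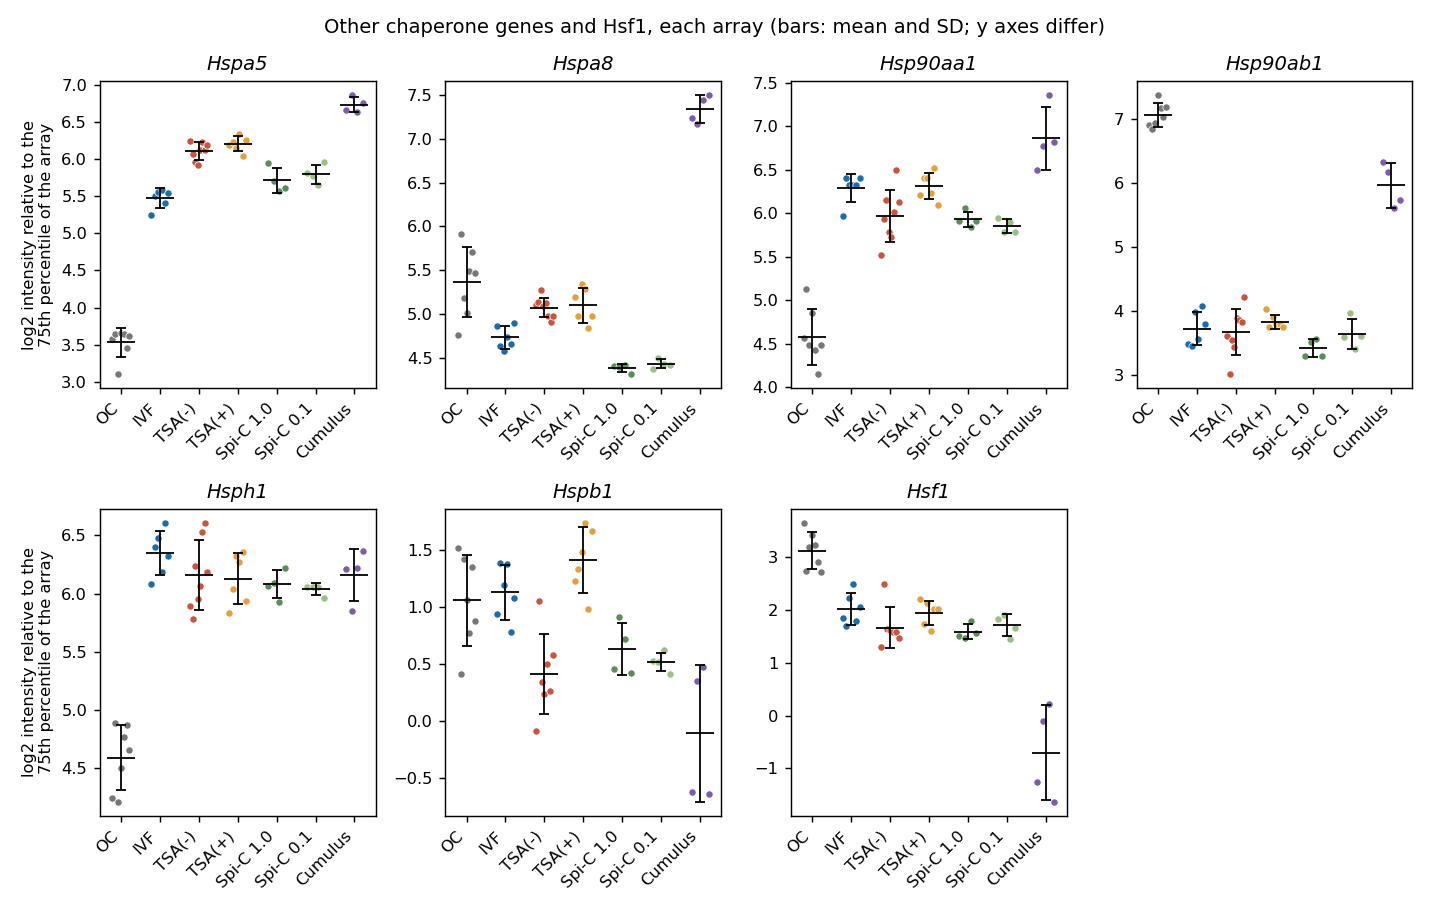
Levels of the lead probes of the other 7 genes on each array (y axes, which differ between panels: log2 intensity relative to the 75th percentile of the array; x axis: the 7 groups). Points are arrays and bars are the mean and SD. Hspa5 is lowest in OC and higher in TSA(-) and TSA(+) than in IVF, Hsp90ab1 and Hsf1 are highest in OC on this scale (with quantile normalization Hsp90ab1 is higher in Cumulus), and Hspa8 is highest in Cumulus.

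**Figure D3:**
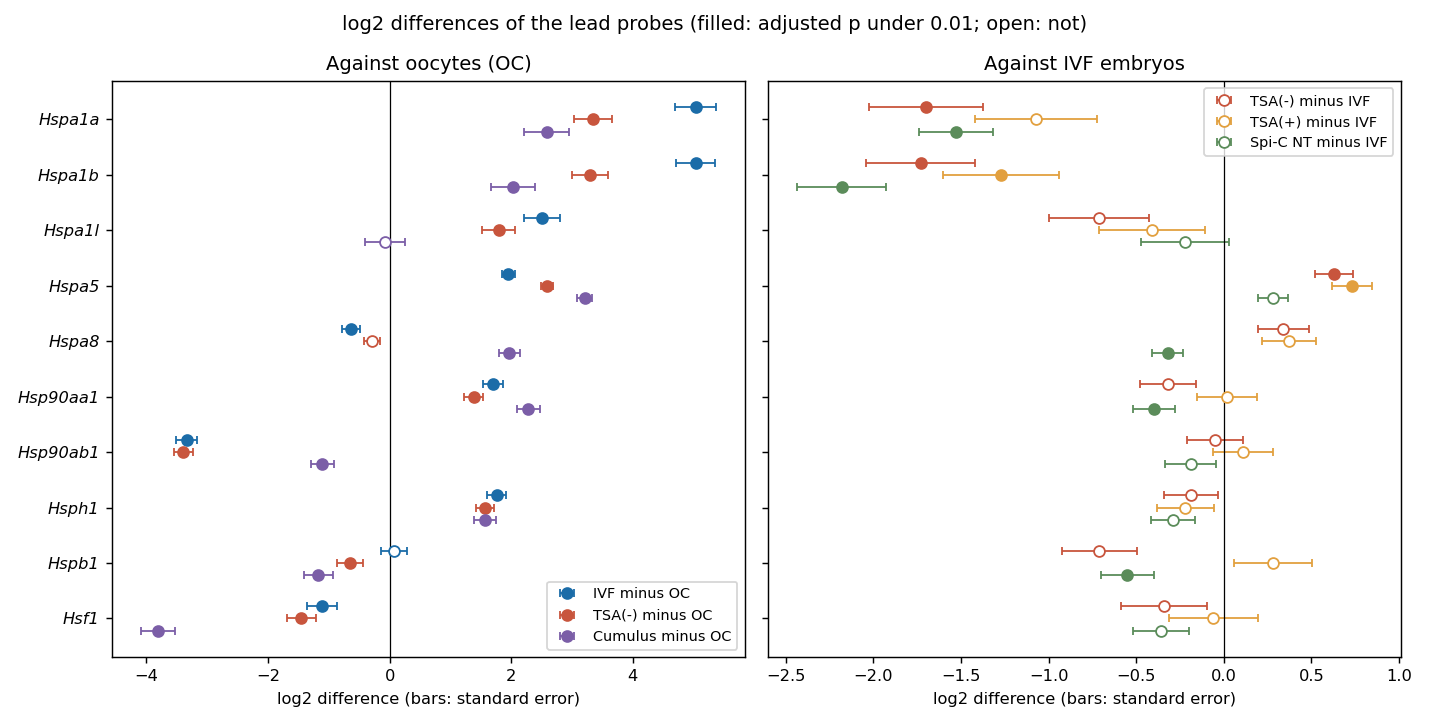
log2 differences of the lead probes of the 10 genes against OC (left: IVF, TSA(-) and Cumulus) and against IVF (right: TSA(-), TSA(+) and Spi-C NT), with standard errors. Filled points had a limma adjusted p under 0.01. The comparisons of a panel share their control arrays. Hspa1a and Hspa1b lie near 5 for IVF minus OC and below 0 in all 3 comparisons with IVF, where Hspa5 lies above 0. With quantile normalization Hspa8 turned to 1.11 and 1.62 for IVF and TSA(-) minus OC, and Hsp90ab1 to 0.92 for Cumulus minus OC.

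Each comparison with IVF shares the IVF arrays, so the members' values are set side by side without a test of their likeness. For TSA(-), TSA(+) and Spi-C NT in that order, the differences from IVF were -1.70, -1.07 and -1.53 for *Hspa1a*, -1.73, -1.27 and -2.18 for *Hspa1b*, 0.63, 0.73 and 0.28 for *Hspa5*, and 0.34, 0.37 and -0.32 for *Hspa8*. The cytosolic inducible pair was below 0 in all of them and *Hspa5* above 0, whereas *Hspa8* changed sign with the Spi-C arrays, which were scanned apart. Over the 15 probes the median log2 difference from IVF was -0.32 for TSA(-), -0.06 for TSA(+) and -0.29 for Spi-C NT, beside -0.04, -0.21 and 0.15 over all probes. For IVF minus OC it was 0.07, beside -0.87 over all probes.

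The 10 genes work with a larger chaperone network, for which 131 other genes were listed by family, with 129 of them tested. From OC to IVF, 46 of these were higher and 59 lower, beside 23.4% of all probes higher and 42.6% lower. Of 9 nucleotide exchange factors of HSP70, which release its substrates, 7 rose and none fell, with a median log2 difference of 3.15 beside -0.87 over all probes. *Bag3*, a partner of HSP70 and of the small heat shock protein HSPB8, had the largest gain of the list, at 10.41 (SE 0.513, limma adjusted p = 4.47e-17). *Bag1* rose by 5.71 (SE 0.321). Only 2 of the 7 OC arrays were well above background for each, and with normexp the gains were 6.94 and 2.71. Of 9 other HSP70 and HSP110 genes, 7 fell and 1 rose, with *Hspa12b* at -4.59 (SE 0.68), *Hspa12a* at -4.51 (SE 0.316) and the testis-linked *Hspa2* at 2.31 (SE 0.201).

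Among 42 HSP40 co-chaperones, 14 rose and 22 fell from OC to IVF (median -0.70, beside -0.87 over all probes). For this list and those below, 23.4% of all probes were higher and 42.6% lower. The counts are not read as a result about these families. *Dnajc12* was not well above background on any OC array and was at least 105-fold higher in IVF (limma adjusted p = 6.13e-23), while *Dnajc10*, which acts in the endoplasmic reticulum, fell by 6.09 on the log2 scale (SE 0.224). Of 15 endoplasmic reticulum genes 6 rose and 7 fell, with *Ddit3*, which encodes the stress factor CHOP, at 3.14 (SE 0.261) and *Atf6*, a sensor of unfolded proteins, at -5.75 (SE 0.193). Among 18 HSP90-related genes 7 rose and 8 fell, and among 15 subunits of the TRiC chaperonin and of prefoldin 6 rose and 7 fell. Of 6 mitochondrial genes 3 rose and 2 fell. One of the latter, *Hspd1*, which encodes HSP60, was at -1.27 but turned to 0.90 with quantile normalization. Of 9 other small heat shock proteins 2 rose and 4 fell, with *Hspb8* at least 7.79-fold higher in IVF. Of 6 other heat shock factors and binding proteins none rose and 2 fell, *Hsf5* at -3.77 (SE 0.574) and *Hsbp1* at -2.33 (SE 0.164), the latter not with quantile normalization (-0.01).

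In TSA(-) against IVF, 17 of the 129 genes were higher and 10 lower, beside 8.58% of all probes higher and 10.2% lower. The heat shock factor *Hsf2* was higher by 2.48 (SE 0.572, limma adjusted p = 0.00134), a gene with a low level in all groups that was well above background on 4 of 6 IVF arrays and 8 of 8 TSA(-) arrays, and for which normexp gave 0.64 and the call was lost with only the groups compared (adjusted p = 0.0114). Of 42 HSP40 co-chaperones 5 were higher and 3 lower, with *Dnajc16* at 2.52 (SE 0.252, limma adjusted p = 8.83e-09). Of 18 HSP90-related genes 2 were higher and 1 lower, with *Unc45a* at 1.87 (SE 0.278). Of 6 mitochondrial genes 1 was higher, *Clpp* at 1.40 (SE 0.331), and none lower. These 3 named calls held under all alternatives. Of 9 other HSP70 and HSP110 genes 3 were higher and 1 lower. *Hspa4*, an HSP110 relative, was higher by 1.60 (SE 0.16, adjusted p = 8.55e-09) and *Hspa2* was lower by -1.59 (SE 0.195, adjusted p = 3.07e-07). The exchange factors *Sil1* and *Grpel1* were higher by 1.02 (SE 0.245) and 0.84 (SE 0.194), calls that were lost with slide as a block (adjusted p 0.0132 and 0.0224), and the TRiC subunits *Tcp1* and *Cct7* by 0.91 (SE 0.131) and 0.68 (SE 0.122). Small heat shock proteins had 3 calls, all lower, with *Hspb3* at -3.57 (SE 0.617) and *Hspb8* at -1.93 (SE 0.538), the second lost with several settings. *Hspb3* was well above background on only 5 of 8 TSA(-) arrays. Its call held under the alternatives, but its size ran from -3.95 to -1.52. *Bag3* did not pass either way (-0.98, SE 0.498, adjusted p = 0.153). Among 15 endoplasmic reticulum genes, the list closest to *Hspa5*, 1 was higher and 1 lower, *Xbp1* at 1.43 (SE 0.357, adjusted p = 0.00282) and *Canx* at -0.61 (SE 0.153, adjusted p = 0.0031). The *Xbp1* call was lost with normexp (0.65), only the groups compared, slide as a block (adjusted p = 0.0513) or without IVF replicate 3, and the *Canx* call with slide as a block (adjusted p = 0.0205), scan day as a block or without IVF replicate 5.

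Trichostatin A moved none of the 129 genes past the limma threshold against TSA(-). By unadjusted p under 0.05 there were 18, and by Tukey's test 2. As no share of all probes was counted by these measures, the counts are not read as a result about these genes. In Spi-C NT against TSA(-), 14 were higher and 25 lower, beside 12.1% of all probes higher and 8.8% lower. The lower ones included the exchange factors *Bag3* at -0.99 (SE 0.143, adjusted p = 7.09e-06) and *Bag1* at -0.84 (SE 0.153), which were not called with all 7 groups in 1 fit (adjusted p 0.0814 and 0.0159). They also included the endoplasmic reticulum HSP90 gene *Hsp90b1* at -0.83 (SE 0.076, limma adjusted p = 5.3e-09) and *Hspe1*, the partner of HSP60, at -0.73 (SE 0.102). A small heat shock protein gene, *Hspb9*, was higher by 1.75 (SE 0.115, adjusted p = 1.4e-11). Between the 2 concentrations of mRNA none of the 129 was called, and 7 had an unadjusted limma p under 0.05, a level at which the share of all probes was not counted.

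**Figure D4:**
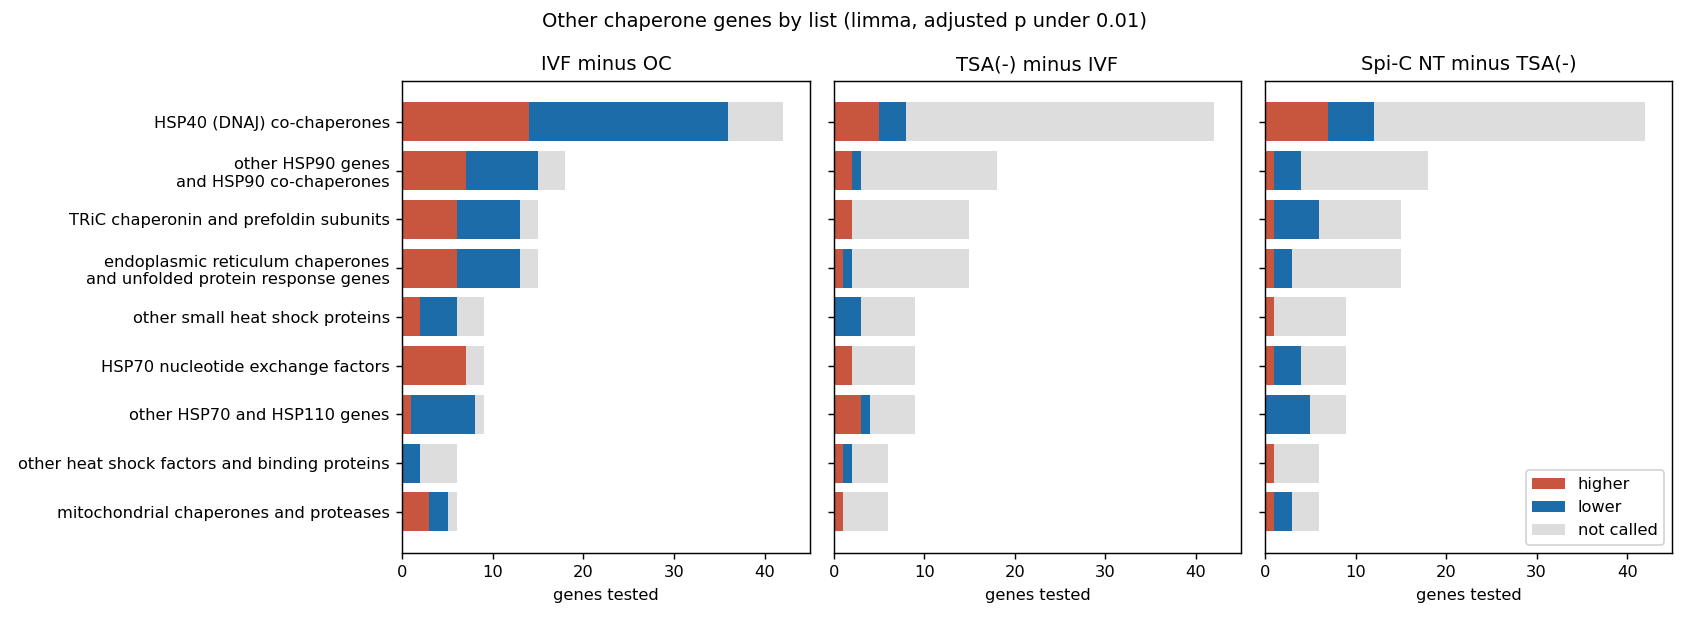
Numbers of other chaperone genes called higher, called lower or not called (x axis: genes tested; limma adjusted p under 0.01) in each of 9 lists, for IVF minus OC, TSA(-) minus IVF and Spi-C NT minus TSA(-). From OC to IVF, 66% of all probes were called, 23.4% higher and 42.6% lower. In that comparison 7 of 9 nucleotide exchange factors were higher and 7 of 9 other HSP70 and HSP110 genes lower.

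Over the 39 arrays the genes most like *Hspa1b* in level, among 15605 named genes, were *Hipk1* (Pearson r = 0.952), *Abt1* (r = 0.947) and *Zfp54* (r = 0.941). All have their highest group mean in IVF, at 4.73, 3.71 and 0.53, and their lowest in OC, at 0.70, 0.16 and -4.94. Those most like *Hspa8* were *Anxa2* (r = 0.942), *Serpinb6c* (r = 0.934) and *Nudt4* (r = 0.926), which all were highest in Cumulus. Nearest to *Hsf1* were *Dctd* (r = 0.968), *Dtx2* (r = 0.966) and *Fgd6* (r = 0.966), with their highest means in OC and their lowest in Cumulus. The 39 points fall into groups that share oocyte, embryo or donor cell content and scan, so these values describe the order of the groups.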

How the data were processed

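Expression was measured on 39 Agilent 1-colour (Cy3) 4x44K mouse arrays in 7 groups, taken from the labels. The deposited scanner files give an intensity per spot that Agilent Feature Extraction had background-subtracted and spatially detrended, without normalization between arrays. The labels name version 9.5.3.1, while the headers of the 12 Cumulus and Spi-C arrays name a later one. The authors also deposited a table of log2 values from GeneSpring. Scale and centring were checked, and 97.34% of its values lay within 0.05 of the values computed here after each probe was centred on its median over the arrays. That table served as an alternative.

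Control spots and spots marked as outliers were left out. The log2 intensity minus the 75th percentile of its array was taken, and spots of a probe were averaged. Where no spot of a probe remained on an array the value was missing, which was so for 1820 values. As in the study, probes with an intensity of at least 10 on at least 1 embryo array were kept, which left 39517 of 41174 probes. Probes were named through RefSeq accessions (27861 with a symbol). limma 3.58.1 (R 4.3.3) was used with lmFit and eBayes, on OC, IVF, TSA(-), TSA(+) and Cumulus together, and on IVF, TSA(-), TSA(+) and both Spi-C groups together. Spi-C NT is the mean of its 2 group means. p-values were adjusted by Benjamini-Hochberg over all tested probes, with a threshold of 0.01. Alternatives were quantile normalization, median centring, normexp with an offset of 50, other filters and fits, blocks for slide, scan day and replicate number, Tukey's test, and leaving out each array. The fit was tested on simulated data. No 2 arrays shared more than 0.00254% of values.

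The 10 genes and the lists were chosen with earlier results of these data known. Of each list up to 2 called genes in each direction with the largest differences were picked in IVF minus OC, TSA(-) minus IVF and Spi-C NT minus TSA(-), by the probe with the highest mean level. The text names only some of these, and not always the larger. *Hspa12b*, for one, was left out at 2.54 (SE 0.66) in TSA(-) minus IVF, a call lost with several settings. It was also left out at -3.54 (SE 0.622) in Spi-C NT minus TSA(-). Where all arrays of a group were not well above background, "at least" gives the brighter mean over the higher of the probe's own level and the lowest level among probes well above background on each array. Likeness was searched among probes well above background on most arrays. Promoter sequences come from RefSeq (GRCm38.p6). The number of arrays limits the precision.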

Additional observations from a re-analysis of the deposited data

Results flagged for a closer look

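Among 70 pairs of a gene and a group, 5 had 1 array set apart from the rest of its group by Dixon's test at the 95% level, where chance gives about 3.5. *Hspa1a* was at 0.56 on OC replicate 1, and the other OC arrays were between -2.24 and -1.12. *Hspa5* was at 3.10 on OC replicate 3 (others 3.45 to 3.65). *Hsp90aa1* was at 5.97 on IVF replicate 1 (others 6.32 to 6.40). *Hsph1* was at 5.96 on replicate 4 of Spi-C mRNA at 0.1 mg/ml, where the other arrays were all at 6.06. *Hsf1* was at 2.49 on TSA(-) replicate 2 (others 1.30 to 1.63), the array that also had the highest *Hspb1* level of its group.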

How the results depend on the processing

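The number of the 15 probes called depended on the processing mainly where it was small. For TSA(+) minus IVF it was 2, and became 5 with quantile normalization, 4 with normexp or only the groups compared, and 1 with median centring, slide as a block or scan day as a block. For TSA(+) minus TSA(-) it was 0, and became 1 with quantile normalization, median centring, normexp, all 7 groups in 1 fit or Tukey's test. For Spi-C NT minus TSA(-) it was 3, and became 1 with quantile normalization or the replicate block. For Spi-C NT minus IVF it was 7, and became 3 with all 7 groups in 1 fit. Without 1 array at a time the counts were 1 to 2 for TSA(+) minus IVF, 2 to 4 for Spi-C NT minus TSA(-), 5 to 7 for Spi-C NT minus IVF, 11 to 12 for TSA(-) minus OC and 4 to 5 for TSA(-) minus IVF. They stayed at 12 for IVF minus OC and for Cumulus minus OC, at 10 for TSA(-) minus Cumulus, and at 0 for TSA(+) minus TSA(-) and for the 2 Spi-C concentrations.

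Among values called before or after the change, the sign turned with quantile normalization for *Hspa8* in IVF minus OC (1.11) and TSA(-) minus OC (1.62), *Hspd1* in IVF minus OC (0.90), *Hsp90ab1* in Cumulus minus OC (0.92) and *Hsp90aa1* in Spi-C NT minus IVF (0.01). With normexp it turned for *Xbp1* (-0.63) and *Hspb3* (-0.11) in IVF minus OC and *Hspa1b* in Cumulus minus OC (-0.05). Of the other single-gene values under an alternative, 2439 kept their side of the threshold, 32 passed it and 86 lost it. The cause was not tested. An alternative with a prior variance that follows the mean level was chosen after seeing the data. Replicate numbers did not pair the arrays: deviations from group means had a median correlation of 0 between arrays of the same number (97 pairs, -0.09 to 0.15) and of 0 between those of different numbers. Blocks for slide or scan day were not run for comparisons with Cumulus, nor scan day for those with Spi-C, nor Tukey's test between the 2 concentrations.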
